A study of Mus musculus with 50 samples.

Results

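The tetraspanins described here were 10 genes, Cd9, Cd37, Cd53, Cd63, Cd81, Cd82, Cd151, Tspan13, Tspan14 and Tspan32, of the 19224 genes in the deposited matrix. They were chosen by name and not by a cut on a measured value, though with earlier results of these data known. Each passed the filter on low values, 10 CPM (counts scaled to a total of 1000000) in 1 of the groups compared, in every comparison. Tetraspanins are small proteins that thread through the cell membrane repeatedly and gather partners, among them integrins, the protease ADAM10 and immune receptors, into membrane patches. In mouse blood formation Cd9 is known as a surface marker of stem cells, Cd81, Cd82 and Cd53 have been linked to stem cell quiescence or self-renewal, and Cd37, Cd53 and Tspan32 are largely restricted to leukocytes. Cd63 sits mainly in late endosomes and secretory granules and is a receptor of the protease inhibitor TIMP1, Cd81 belongs to the B cell co-receptor complex, Cd151 binds laminin-receptor integrins, and Tspan14 escorts ADAM10.

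Single haematopoietic stem cells had each been injected, with whole marrow of B6-Ly5.2 mice as competitors, into lethally irradiated B6-Ly5.2 recipients; the donors were B6-Ly5.2 mice that carry a β-actin-GFP transgene. Of 50 labelled samples, of bone marrow alone or with spleen, 10 were taken at month 1, 26 at month 4 and 14 at month 12. Cells enriched for c-Kit were sorted one by one by CD201 (the product of Procr), CD150, CD48, Sca-1, c-Kit and lineage antigens, or by GFP, so the gates can set the share of every cell group below. Of 4271 cell names in 67 libraries, 0 carried a sample title, so the matrix was treated as 1 pooled sample: months, tissues and GFP status were not compared, donor and host cells were not told apart, and no difference below has a replicate check or a test.

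Of the 4185 cells kept, with at least 1000 genes counted and at most 10% mitochondrial counts, 2502 were Procr+ non-cycling (59.8%, exact binomial 95% interval 58.3 to 61.3), with Procr at 20 CPM or more and fewer than 5 of 20 cell cycle genes at 20 CPM. There were 366 Procr+ cycling cells, with 5 or more of those genes. Among Procr-low cells, those with 3 or more markers of 1 lineage at 100 CPM formed 8 classes of at least 20 cells: 52 with B-lineage, 30 with T-lineage, 60 with plasma cell, 241 with neutrophil, 21 with primary granule, 40 with macrophage, 34 with erythroid and 55 with megakaryocyte markers. A further 159 Procr-low cells were cycling and 585 carried neither mark. The Procr threshold was no gap in the data: 342 cells lay between 10 and 40 CPM, and 383 cells had 3 or 4 cell cycle genes, just under the cut, against 176 with 5 or 6.

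The class labels were checked against the markers and against the stem cell genes Mecom and Hlf. Summed marker levels were higher in each class than in Procr+ non-cycling cells, for example 9167 against 102 CPM for the B-lineage list, 37583 against 239.5 CPM for the plasma cell list and 5833 against 32.8 CPM for the erythroid list. At least 1 of the 2 stem cell genes stood at 20 CPM or more in 11.8% of erythroid, 13.3% of T-lineage, 19.2% of B-lineage, 23.3% of plasma cell, 35.7% of neutrophil, 42.5% of macrophage and 61.9% of primary granule marker cells, against 95.4% of Procr+ non-cycling cells. The share was 76.4% in the cells with megakaryocyte markers, so these are named by their markers alone and not as megakaryocytes. In 8 libraries with 563 kept cells, Procr+ non-cycling cells had a median summed neutrophil marker level of 1000 CPM or more, and over all libraries the summed level of the 12 markers was 5360 CPM in Procr+ cycling and 51769 CPM in neutrophil marker cells, against 1393 CPM in Procr+ non-cycling cells. Kept cells had a median of 122013 counts and 4186 genes; the class medians ran from 43786 counts in B-lineage marker cells to 258026 in erythroid marker cells, against 128518 in Procr+ non-cycling cells.

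The stretches of 250 bases before the RefSeq starts of 5 members are shown because the results on the lymphoid classes turn on them: Cd37 and Cd53, which were high in B- and T-lineage marker cells, Cd63, which was low there, and Tspan32 and Cd81, neighbours on chromosome 7 that were 33094 bases apart and differed in opposite directions in plasma cell marker cells. Sequences are from RefSeq (GRCm38.p6), 5′ to 3′ on the gene's strand, in lower case; capitals mark matches on either strand to AGGAAG (the ETS core), TGTGGT (for RUNX factors), AGATAA (for GATA factors), CAGCTG (an E-box) or GGGCGG (the GC box).
Cd37: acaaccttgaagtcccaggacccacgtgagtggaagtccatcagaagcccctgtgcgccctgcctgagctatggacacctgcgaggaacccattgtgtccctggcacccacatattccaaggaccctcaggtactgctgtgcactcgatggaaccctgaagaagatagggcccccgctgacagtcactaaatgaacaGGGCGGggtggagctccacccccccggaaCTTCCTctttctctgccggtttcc
Cd53: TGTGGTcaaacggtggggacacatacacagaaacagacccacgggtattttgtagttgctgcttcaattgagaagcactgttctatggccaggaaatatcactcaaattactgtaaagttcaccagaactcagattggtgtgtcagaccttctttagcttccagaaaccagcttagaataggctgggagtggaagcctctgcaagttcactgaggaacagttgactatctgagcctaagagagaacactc
Cd63: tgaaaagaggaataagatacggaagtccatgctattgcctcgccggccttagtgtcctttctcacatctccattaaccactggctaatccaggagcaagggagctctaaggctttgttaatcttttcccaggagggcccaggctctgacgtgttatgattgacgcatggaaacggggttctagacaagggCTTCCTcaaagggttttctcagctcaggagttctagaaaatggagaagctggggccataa
Tspan32: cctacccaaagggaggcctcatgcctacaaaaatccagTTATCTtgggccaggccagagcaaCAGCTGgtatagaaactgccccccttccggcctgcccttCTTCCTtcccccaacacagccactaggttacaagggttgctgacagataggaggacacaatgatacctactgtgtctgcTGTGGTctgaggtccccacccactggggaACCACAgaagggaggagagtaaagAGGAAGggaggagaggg
Cd81: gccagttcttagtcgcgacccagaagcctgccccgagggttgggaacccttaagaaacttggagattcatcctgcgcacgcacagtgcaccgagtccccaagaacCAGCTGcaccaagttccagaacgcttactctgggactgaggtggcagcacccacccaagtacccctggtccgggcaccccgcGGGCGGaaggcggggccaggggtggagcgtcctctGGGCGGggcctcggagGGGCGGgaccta

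The Cd37 window (chr7:45238840-45239089, minus strand) held 1 ETS core, 24 to 19 bases before the start, and 1 GC box. The Cd53 window (chr3:106790150-106790399, minus strand) held 1 RUNX match at its far end, and the Cd63 window (chr10:128909095-128909344, plus strand) 1 ETS core. The Tspan32 window (chr7:143004796-143005045, plus strand) held 2 ETS cores, 2 RUNX matches, 1 GATA match and 1 E-box, whereas the Cd81 window (chr7:143052500-143052749, plus strand) held 3 GC boxes and 1 E-box. Of all 32851 RefSeq windows of this length, 29.5% held the ETS letters, 14.0% the RUNX letters, 9.99% the GATA letters, 13.0% the E-box and 32.7% the GC box, and a match here describes letters only. In the GENCODE annotation of GRCm38, Cd37 (chromosome 7, 45233632 to 45239115) overlaps Tead2 on the other strand, Tspan32 (143005046 to 143019644) overlaps an antisense transcript and Cd81 (143052739 to 143067934) overlaps R74862. The sources used here do not say if strand was used in counting, so reads of such pairs cannot be told apart. Levels below are CPM of counts summed over a group's cells; because the assay counted transcript 3′ ends, they are compared between groups and never between genes.

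**Figure D1:**
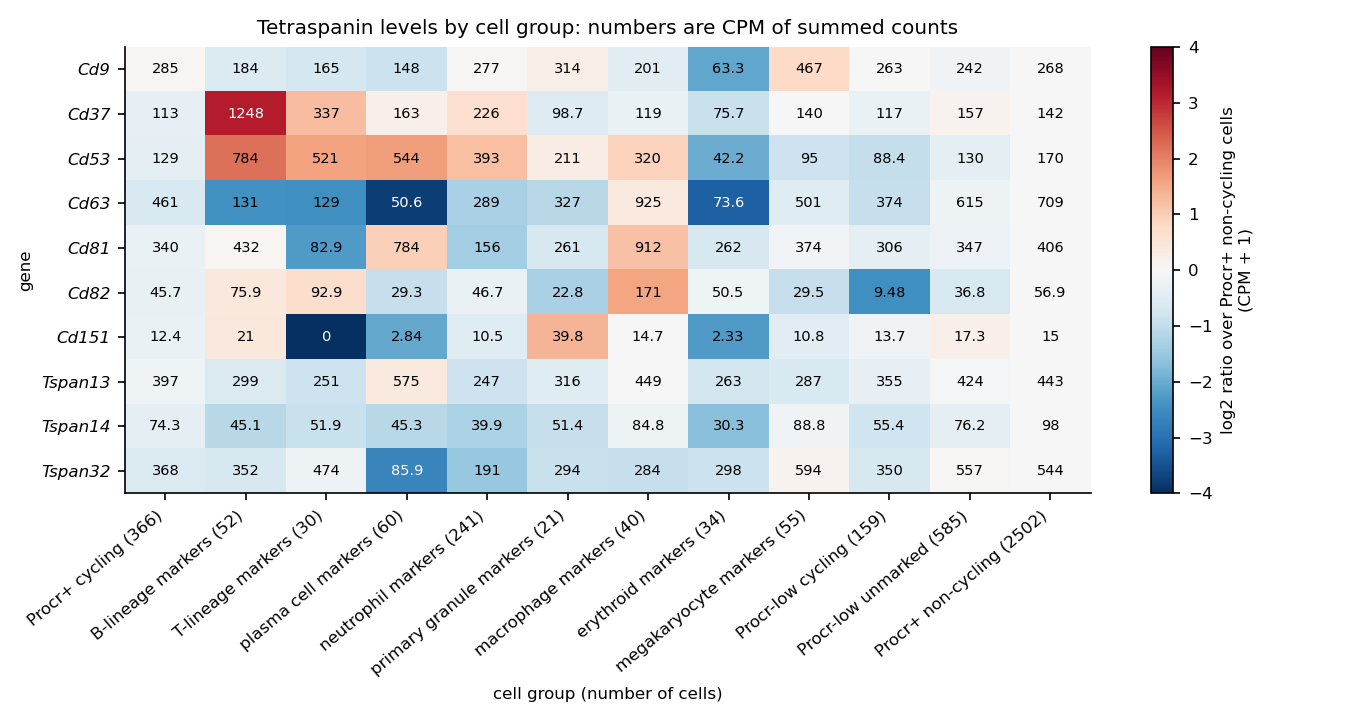
Level of each tetraspanin (rows) in each cell group (columns, number of cells in brackets), as CPM of summed counts; colour is the log2 ratio of (CPM + 1) over Procr+ non-cycling cells, the column at the right, cut at 4 in either direction. Cd37 stands at 1248 CPM in B-lineage marker cells and Cd63 at 50.6 CPM in plasma cell marker cells, against 142 and 709 CPM in Procr+ non-cycling cells.

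In Procr+ cycling cells 9 of the 10 tetraspanins stood lower than in Procr+ non-cycling cells, by less than the fold. None was past the fold, an absolute log2 ratio of (CPM + 1) of at least 1, between Procr+ cycling and Procr+ non-cycling cells; of all 9020 genes tested 8.38% were, so a count of 0 in 10 is near that background. Cd63 stood at 461 CPM in cycling cells, against 709 CPM in non-cycling cells, a log2 ratio of -0.62, and was lower in 22 of the 25 libraries with at least 5 cells of both kinds. Tspan32 stood at 368 CPM in cycling cells, against 544 CPM in non-cycling cells, a log2 ratio of -0.56, and was lower in 21 of the 25. These were the members with the most even direction over libraries.

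Cd9, the stem cell marker, was the only member with a ratio above 0: it stood at 285 CPM in cycling cells, against 268 CPM in non-cycling cells (log2 ratio 0.09), and was higher in 16 of 25 libraries. Over libraries its log2 ratio ran from -1.24 to 1.24, so libraries fell on both sides of 0. The other 7 had log2 ratios between -0.40 and -0.16. Cd81, at 340 CPM in cycling cells against 406 CPM in non-cycling cells, was lower in 19 of 25 libraries, and Tspan14, at 74.3 against 98.0 CPM in the same order, in 18. Cd53 stood at 129 CPM in cycling cells and 170 CPM in non-cycling cells, Cd37 at 113 and 142 CPM, Tspan13 at 397 and 443 CPM, Cd82 at 45.7 and 56.9 CPM, and Cd151 at 12.4 and 15.0 CPM. The median log2 ratio of the 10 members was -0.32, beside 0.01 over all genes tested. Neutrophil markers were higher in the cycling cells, as given above; without the 8 libraries where they were high, which left 302 and 2286 cells, the log2 ratio of Cd63 was -0.57 and that of Tspan32 -0.50.

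**Figure D2:**
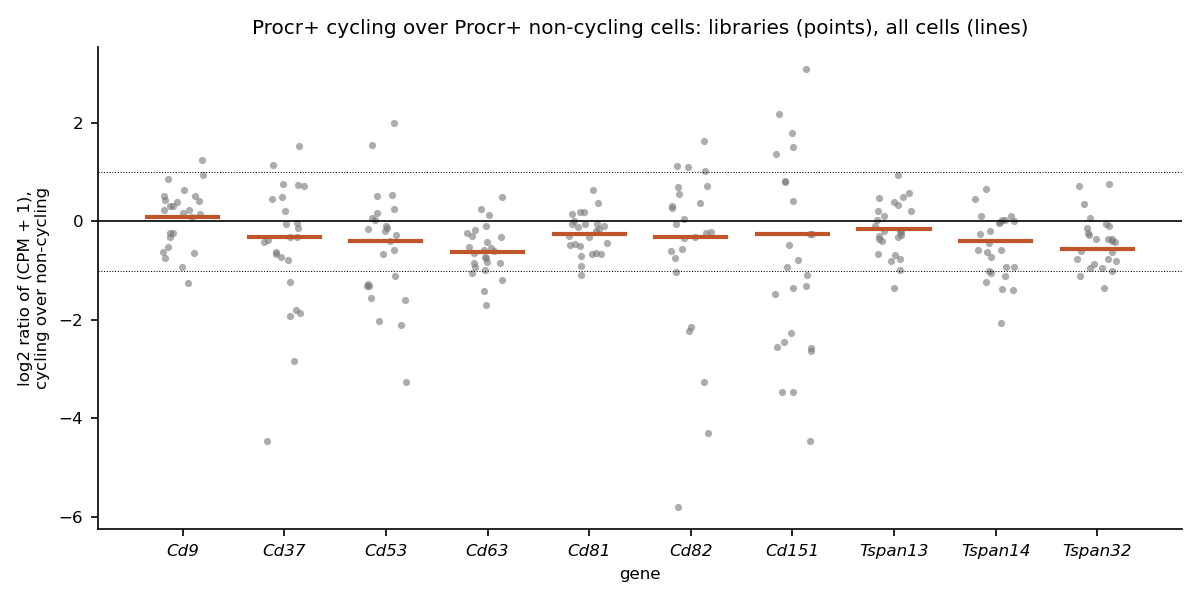
Log2 ratio of (CPM + 1) of Procr+ cycling over Procr+ non-cycling cells for each tetraspanin; grey points are the 25 libraries with at least 5 cells of both kinds, the line is the ratio over all cells, and dotted lines mark ratios of 1 and -1. The points of Cd63 and Tspan32 lie mostly below 0, and those of Cd82 and Cd151, the members counted in the smallest shares of cells, spread widest.

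The same direction was seen without Procr. In Procr-low cycling cells Cd63 stood at 374 CPM, against 615 CPM in Procr-low unmarked cells, and Tspan32 at 350 against 557 CPM; over the 5 libraries with both, however, Cd63 was higher in 3. One member was past the fold there: Cd82, known from human tumours as the metastasis suppressor KAI1, stood at 9.48 CPM in the cycling cells and 36.8 CPM in the unmarked cells (log2 ratio -1.85; of all genes tested, 11.5% were past the fold). It was lower in 3 of those 5 libraries, higher in 1 and at 0 on both sides in 1; its level was 0 to 20.6 CPM in the 7 libraries with 5 or more Procr-low cycling cells.

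B- and T-lineage marker cells carried more Cd37 and Cd53 and less Cd63 than Procr+ non-cycling cells, each past the fold; plasma cell marker cells shared the differences in Cd53 and Cd63 but not that in Cd37. In B-lineage marker cells 2 members were past the fold upward and 2 downward, beside 42.7% of all 9252 genes tested in either direction (15.7% upward and 27.1% downward), so the count of 4 in 10 is near that background. Cd37, a leukocyte tetraspanin needed for B cell responses in mice, stood at 1248 CPM in B-lineage marker cells (exact Poisson 95% interval 1211 to 1286), against 142 CPM in Procr+ non-cycling cells (141 to 143), 8.73 times as high on the (CPM + 1) scale. Its level in the 3 libraries with 5 or more B-lineage marker cells was 1042, 1480 and 1768 CPM, against a lowest of 56.2, a median of 130 and a highest of 283 CPM in the 62 libraries with as many Procr+ non-cycling cells. The ranges did not overlap, and each of the 52 B-lineage marker cells held a Cd37 count. Of these 52 cells, 25 came from Lib1, 1 of the 8 libraries high in neutrophil markers. Cd53 stood at 784 CPM in B-lineage marker cells, against 170 CPM in Procr+ non-cycling cells (log2 ratio 2.19), and its 3 libraries, at 635, 966 and 992 CPM, lay above the highest of the 62, at 364 CPM. Only 1 library held 5 or more cells of both kinds, so class and library could largely not be told apart in these ranges. In that library the log2 ratios were 3.25 for Cd37 and 1.68 for Cd53.

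Cd63 went the other way in the same cells. It stood at 131 CPM in B-lineage marker cells, against 709 CPM in Procr+ non-cycling cells (log2 ratio -2.42). The 3 libraries held 6.62, 32.2 and 121 CPM, against 289 to 964 CPM over the 62, with no overlap. In the 1 library with 5 or more cells of both kinds the log2 ratio of Cd63 was -4.21. Only 16 of 52 B-lineage marker cells had any Cd63 count (30.8%, 18.7 to 45.1), against 98.0% of Procr+ non-cycling cells; with each cell thinned to 20000 counts the shares were 11.9% of 42 B-lineage marker cells and 96.4% of 2358 Procr+ non-cycling cells. Without the 1 B-lineage marker cell of library Lib55 the log2 ratio was -3.37, and among the 42 B-lineage marker cells in which Mecom and Hlf were both under 20 CPM it was -5.95, a choice made after the data were seen. Tspan14 was lower as well, at 45.1 CPM in B-lineage marker cells against 98.0 CPM in Procr+ non-cycling cells (log2 ratio -1.10), but not past the fold without library Lib2 (-0.92).

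Cd81 did not differ past the fold in B-lineage marker cells, at 432 CPM against 406 CPM in Procr+ non-cycling cells. Cd9 stood at 184 CPM in B-lineage marker cells, against 268 CPM in Procr+ non-cycling cells, Tspan13 at 299 against 443 CPM and Tspan32 at 352 against 544 CPM, each short of the fold. Cd82, at 75.9 against 56.9 CPM, was counted in 21.2% of the B-lineage marker cells. Cd151, at 21.0 against 15.0 CPM, was counted in 3 of the 52 cells, and its log2 ratio of 0.46 was 1.20 without library Lib1 and -2.50 without library Lib2. Within the 1 library with both kinds of cell the log2 ratios were -1.94 for Tspan32, 1.99 for Cd82 and 2.49 for Cd151. They were -0.24 for Cd9, -0.83 for Tspan13 and -0.75 for Tspan14.

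In T-lineage marker cells 2 members were past the fold upward and 3 downward (background 14.2% upward, 26.2% downward and 40.4% in either direction). Cd53 stood at 521 CPM in T-lineage marker cells, against 170 CPM in Procr+ non-cycling cells (log2 ratio 1.61); the 2 libraries with 5 or more such cells held 928 and 1088 CPM, above all 62 libraries of Procr+ non-cycling cells. Cd37 stood at 337 against 142 CPM (log2 ratio 1.24, and 0.97 without the 1 T-lineage marker cell of library TP56). Cd63 stood at 129 CPM in T-lineage marker cells, against 709 CPM in Procr+ non-cycling cells (log2 ratio -2.45, and -4.67 without library Lib112), and the 2 libraries held 0 and 22.8 CPM. Only 1 library held 5 or more cells of both kinds, so class and library could largely not be told apart here either. In that library the log2 ratios were 5.53 for Cd53, 2.53 for Cd37 and -4.87 for Cd63.

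Cd81 separated the T-lineage from the other lymphoid classes. It stood at 82.9 CPM in T-lineage marker cells, the lowest of the 12 groups of 20 or more cells, against 406 CPM in Procr+ non-cycling cells (log2 ratio -2.28). The 2 libraries held 84.7 and 182 CPM, below the 206 to 557 CPM of the 62. In the 1 library with 5 or more cells of both kinds the log2 ratio of Cd81 was -1.12. Cd151 had 0 counts in the 30 T-lineage marker cells, against 15.0 CPM in Procr+ non-cycling cells, where 18.1% of cells held a count. With cells thinned to 20000 counts it was found in 0 of 27 T-lineage marker cells, which allows a share of up to 12.8% (exact binomial 95% limit), against 10.1% of Procr+ non-cycling cells, so a difference in the share of cells was not detectable at this depth. Tspan32, the leukocyte tetraspanin that restrains T cell proliferation in mice, stood at 474 CPM in T-lineage marker cells and 544 CPM in Procr+ non-cycling cells, short of the fold. Tspan13, at 251 against 443 CPM, was short of the fold (log2 ratio -0.82) but past it without library TP56 (-1.10) and in 3 further alternatives (-1.03 to -1.50). Tspan14, at 51.9 against 98.0 CPM (log2 ratio -0.90), was past it without Lib112 (-1.27) or Lib17 (-1.28) and in 3 further alternatives, the farthest at -1.95. Cd9, at 165 against 268 CPM, and Cd82, at 92.9 against 56.9 CPM, were short of it. Each was past it in 2 alternatives, at log2 ratios of -1.17 and -1.04 for Cd9 and of 1.18 and 1.23 for Cd82. In the 1 library with both kinds of cell, Tspan13 (log2 ratio 0.10), Tspan14 (0.76) and Tspan32 (2.15) were higher in T-lineage marker cells, against their pooled direction. Cd82 (4.33), Cd9 (-2.80) and Cd151 (-3.11) kept their pooled direction there.

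In plasma cell marker cells 1 member was past the fold upward and 4 downward (background 13.9% upward, 33.1% downward and 47% in either direction). Cd63 was at its lowest there, at 50.6 CPM (45.1 to 56.7), against 709 CPM in Procr+ non-cycling cells, 13.7 times lower on the (CPM + 1) scale. In the 6 libraries with 5 or more plasma cell marker cells it ran from 6.22 through a median of 16.0 to 68.8 CPM, against 289 to 964 CPM over the 62. The ranges did not overlap, and in the 4 libraries with both kinds of cell Cd63 was lower in all 4. Without library Lib68 the log2 ratio of -3.78 was -4.42, and among the 46 plasma cell marker cells without the stem cell genes it was -5.68. In thinned cells 23.5% of plasma cell marker cells had a Cd63 count, against 96.4% of Procr+ non-cycling cells.

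Tspan32 and Cd81, the neighbours on chromosome 7, parted in these cells. Tspan32 stood at 85.9 CPM in plasma cell marker cells, its lowest group, against 544 CPM in Procr+ non-cycling cells (log2 ratio -2.65), and was lower in 4 of 4 libraries; the 6 libraries ran from 11.8 through 74.2 to 232 CPM, against 165 through 531 to 788 CPM over the 62, so the ranges met at their ends. Cd81 stood at 784 CPM in plasma cell marker cells, against 406 CPM in Procr+ non-cycling cells (log2 ratio 0.95, short of the fold), and was higher in 4 of 4 libraries. Its 6 libraries, from 613 through 679 to 1343 CPM, lay above the 206 to 557 CPM of the 62, and with all genes centred on their median the ratio was 1.39, past the fold. Cd53 was past it upward, at 544 against 170 CPM (log2 ratio 1.67), and had a count in 60 of 60 plasma cell marker cells.

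The remaining members varied more in the plasma cell marker cells. Cd151, at 2.84 CPM against 15.0 CPM in Procr+ non-cycling cells (log2 ratio -2.06), was counted in 5 of 60 cells and stood at -3.35 without library Lib3. It was higher in 2 and lower in 2 of the 4 libraries with both kinds of cell. With a pseudocount of 10 CPM it was short of the fold (-0.96). Tspan14, at 45.3 against 98.0 CPM (log2 ratio -1.10), was not past the fold without Lib1 (-0.96), Lib3 (-0.95), Lib68 (-0.94) or TP56 (-0.91). Cd82 was lower over all cells, at 29.3 against 56.9 CPM, yet higher in 4 of the 4 libraries with both kinds of cell; it was past the fold downward without any 1 of Lib13, Lib2, Lib3 or Lib68 (-1.01 to -1.14). Cd37, at 163 against 142 CPM, did not share the high level of the B-lineage marker cells. Tspan13, at 575 CPM against 443 CPM, had its highest level in this class, and Cd9 stood at 148 against 268 CPM.

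**Figure D3:**
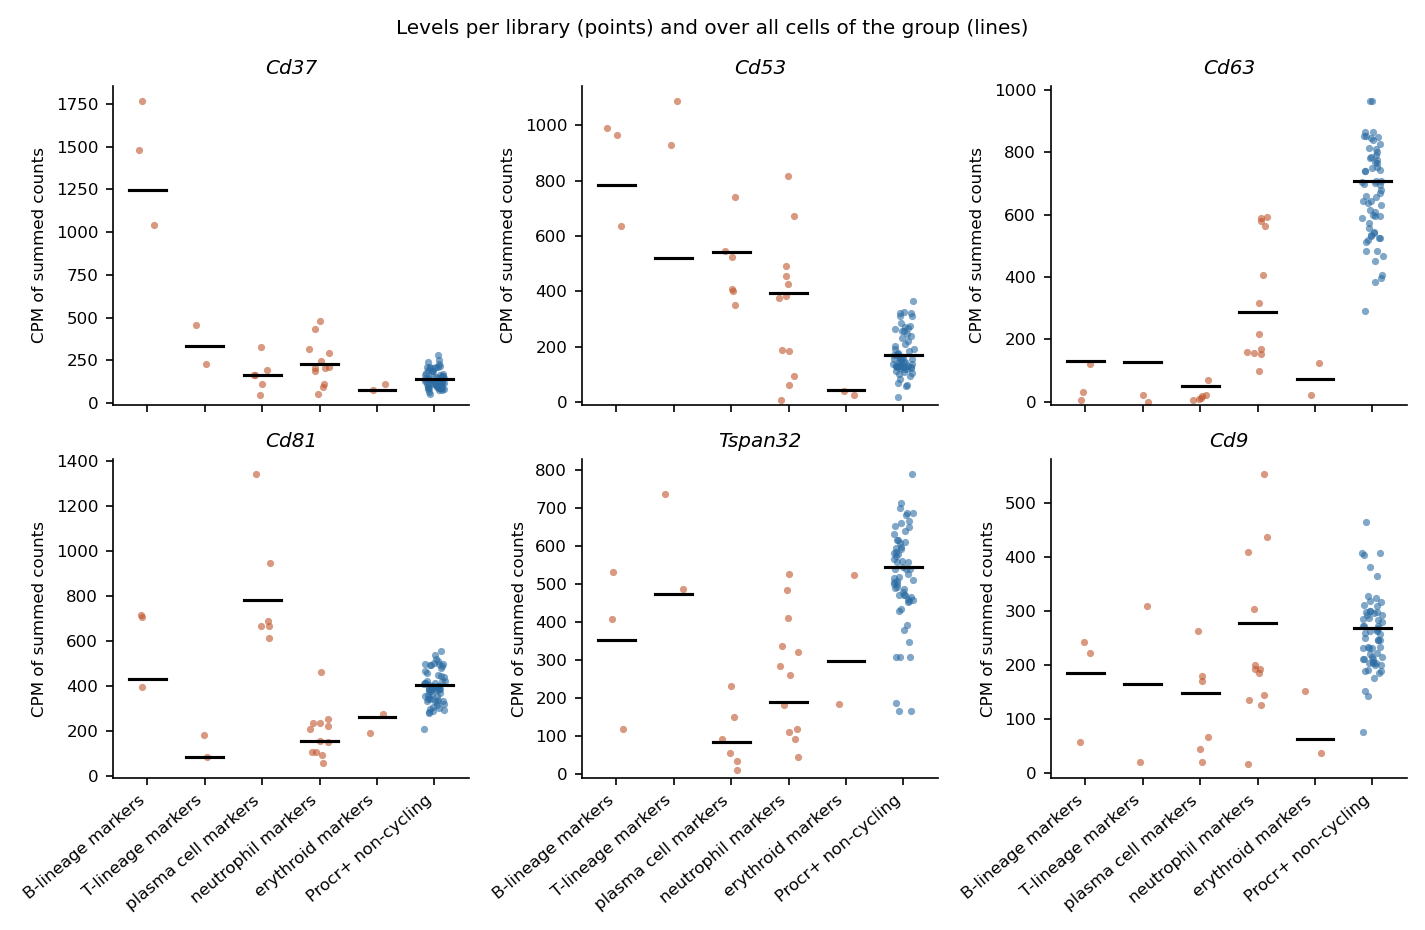
CPM of summed counts of 6 tetraspanins; points are libraries with at least 5 cells of the group, lines are the level over all cells of the group. In Cd37 the 3 points of B-lineage marker cells, 1042 to 1768 CPM, and in Cd63 the points of the lymphoid classes, up to 121 CPM, lie apart from the Procr+ non-cycling cells at the right, at 56.2 to 283 and 289 to 964 CPM.

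Neutrophil marker cells had 1 member past the fold upward and 4 downward (background 18.3% upward, 14.8% downward and 33.1% in either direction). Cd81 stood at 156 CPM in neutrophil marker cells, against 406 CPM in Procr+ non-cycling cells (log2 ratio -1.38), and was lower in 5 of the 7 libraries with 5 or more cells of both. Cd63 stood at 289 CPM in neutrophil marker cells, against 709 CPM in Procr+ non-cycling cells (log2 ratio -1.29), and was lower in 7 of 7; without library TP57, which gave 48 of the 241 cells, the ratio was -0.95. Tspan14, at 39.9 against 98.0 CPM (log2 ratio -1.27), was lower in 6 of 7. With each cell weighted equally Cd81 (-0.95) and Tspan14 (-0.65) were short of the fold.

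For 2 of the members past the fold in neutrophil marker cells the pooled value and the libraries disagreed. Tspan32 stood at 191 CPM in neutrophil marker cells, against 544 CPM in Procr+ non-cycling cells (log2 ratio -1.51), but was higher in 4 of the 7 libraries. Cd53 stood at 393 CPM in neutrophil marker cells, against 170 CPM in Procr+ non-cycling cells (log2 ratio 1.20), but was higher in only 3 of 7, with library levels from 6.89 through 379 to 816 CPM. Among the 155 neutrophil marker cells without the stem cell genes the log2 ratios were -2.19 for Tspan32 and 1.42 for Cd53. Cd37, at 226 against 142 CPM, and Tspan13, at 247 against 443 CPM, were short of the fold. Cd37 was past it with equal weights and with thinning (1.01 to 1.09), and Tspan13 without cells carrying stem cell genes (-1.05). Cd9, at 277 against 268 CPM, was higher in 3 of 7 libraries, and Cd82, at 46.7 against 56.9 CPM, in 3 as well. Cd151 stood at 10.5 against 15.0 CPM.

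The macrophage and primary granule classes were small, at 40 and 21 cells. Each was spread over 13 libraries, and only 3 libraries held 5 or more macrophage marker cells. Macrophage marker cells had the highest levels of Cd81, at 912 CPM against 406 CPM in Procr+ non-cycling cells (log2 ratio 1.17), of Cd82, at 171 against 56.9 CPM (log2 ratio 1.57), and of Cd63, at 925 against 709 CPM; the first of these and Cd82 were past the fold (2 of 10 members; background 33.8%). In the only library with 5 or more cells of both kinds, however, Cd81 (log2 ratio -0.24), Cd82 (-0.22) and Cd63 (-0.57) were lower in macrophage marker cells. Without library TP56, which gave 14 of the 40 cells, the ratios of Cd81 and Cd82 were 0.13 and 0.56. Among the 23 macrophage marker cells without the stem cell genes they were 1.74 and 2.18, and Tspan32, at 284 against 544 CPM over all 40, had a ratio of -2.38 there. Over all 40 the ratio of Tspan32 was -0.94, past the fold without Lib116 (-1.46) or Lib89 (-1.07) and in 6 further alternatives (-1.02 to -2.38). Cd53 stood at 320 against 170 CPM (log2 ratio 0.91), past the fold without Lib114 (1.06) or Lib116 (1.07) and in 5 further alternatives (1.12 to 1.40). Cd9, Cd37, Cd151, Tspan13 and Tspan14 had ratios between -0.42 and 0.02.

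In the 21 primary granule marker cells, Cd63 stood at 327 CPM against 709 CPM in Procr+ non-cycling cells (log2 ratio -1.11, and -0.99 without TP56). Cd82 stood at 22.8 against 56.9 CPM (log2 ratio -1.28, and -2.01 without Lib42), but between -0.97 and -0.43 with equal weights, thinned or without cells carrying stem cell genes. Cd151 stood at 39.8 against 15.0 CPM (log2 ratio 1.35, and 0.81 without Lib42), from counts in 3 of the 21 cells; with the markers at 200 CPM, or without cells carrying stem cell genes, it had 0 counts and its sign turned (-4.002). These 3 were past the fold, beside 34.1% of all genes tested. No library held 5 such cells, so their spread over libraries was not measured, and only 8 of the cells were without the stem cell genes. Tspan13 was past the fold downward without Lib77 (-1.15), Tspan14 without Lib42 (-1.14) or Lib77 (-1.53) and Tspan32 without Lib22 (-1.08) or Lib77 (-1.04).

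In erythroid marker cells no member was past the fold upward and 5 were downward (background 11.9% upward, 28.8% downward and 40.7% in either direction). Cd63 stood at 73.6 CPM in erythroid marker cells, against 709 CPM in Procr+ non-cycling cells, 9.51 times lower on the (CPM + 1) scale; the 2 libraries with 5 or more such cells held 20.9 and 123 CPM, below the 289 to 964 CPM of the 62. Cd9 stood at 63.3 against 268 CPM (log2 ratio -2.07, and -3.14 without Lib22), its lowest group. Cd53, at 42.2 against 170 CPM (log2 ratio -1.99), and Cd37, at 75.7 against 142 CPM (log2 ratio -0.90, and -1.17 without Lib22), were also at their lowest there, and Cd37 was nonetheless counted in 94.1% of these deeply sequenced cells. Cd151, at 2.33 against 15.0 CPM (log2 ratio -2.26), and Tspan14, at 30.3 against 98.0 CPM (log2 ratio -1.66), completed the 5. In the 2 libraries with 5 or more cells of both kinds, Cd63 and Cd9 were lower in 2. Cd53, Cd151 and Tspan14 were each higher in 1 and lower in 1.

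Cd81 was kept closer to the Procr+ non-cycling level in the same cells. It stood at 262 CPM in erythroid marker cells, against 406 CPM in Procr+ non-cycling cells, and was counted in 34 of 34 cells. Tspan32, at 298 against 544 CPM, was past the fold only without Lib22 (-1.36), while in the 2 libraries with both kinds of cell it was higher. Cd82 stood at 50.5 against 56.9 CPM and Tspan13 at 263 against 443 CPM. The erythroid marker cells were also the class with the largest share of cycling cells among the lineage classes, 79.4%. By definition it was 0% in Procr+ non-cycling cells. The share was 43.3% in T-lineage, 42.9% in primary granule, 40.7% in neutrophil and 27.3% in megakaryocyte marker cells. It was 21.7% in plasma cell, 17.5% in macrophage and 7.69% in B-lineage marker cells. The part of cycling in the values of any class was not tested.

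In the 55 cells with megakaryocyte markers, 42 of which carried a stem cell gene, no member was past the fold (background 13.8%). Cd9, which platelets carry in abundance, was at its highest there: 467 CPM, against 268 CPM in Procr+ non-cycling cells (log2 ratio 0.80). Tspan32 was at its highest too, at 594 against 544 CPM. Cd53 (log2 ratio -0.84, and -1.71 without Lib90), and Cd82, at 29.5 against 56.9 CPM (log2 ratio -0.93, and past the fold without Lib71, Lib76 or Lib79, at -1.04 to -1.21, and by little without Lib83), were lower. Cd63 stood at 501 against 709 CPM, Cd81 at 374 against 406 CPM, Tspan13 at 287 against 443 CPM, Tspan14 at 88.8 against 98.0 CPM and Cd37 at 140 against 142 CPM. Cd151 stood at 10.8 against 15.0 CPM, and its log2 ratio of -0.45 was -1.04 without Lib55. In alternatives, Cd9 was past the fold in 4 (1.12 to 1.58) and Cd53 in 4 (-1.49 to -1.10). So were Cd82 in 3 (-1.38 to -1.06), Cd63 in 2 (-1.73 and -1.44), Cd151 in 2 (-2.98 and -1.01) and Tspan13 in 1 (-1.72).

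Over the 12 groups of at least 20 cells, the 10 members differed in how far their levels spread. The highest group stood 18.6-fold above the lowest for Cd53, 18.3-fold for Cd63, 18.1-fold for Cd82, 16.5-fold for Cd37 and 11.0-fold for Cd81, against 7.39-fold for Cd9, 6.91-fold for Tspan32, 3.23-fold for Tspan14 and 2.33-fold for Tspan13. Cd151 had no such ratio, since its lowest level was 0 CPM, in T-lineage marker cells. Macrophage marker cells were the highest group for Cd81 and Cd82, whose log2 ratios there fell to 0.13 and 0.56 without library TP56. The lowest level of Cd82 was 9.48 CPM, in Procr-low cycling cells. Tspan14 was the only member whose highest group was Procr+ non-cycling cells, at 98.0 CPM. The ranges over libraries of that group and of the next, the cells with megakaryocyte markers, overlapped. For Cd63 Procr+ non-cycling cells came second, after macrophage marker cells, and the order then ran through Procr-low unmarked, megakaryocyte marker, Procr+ cycling and Procr-low cycling cells to the primary granule, neutrophil, B-lineage, T-lineage, erythroid and plasma cell marker cells. Neighbours in that order overlapped over libraries wherever both had libraries of 5 cells. For Cd37 the gap between the first group, B-lineage, and the second, T-lineage marker cells, was wider than the libraries' ranges.

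Procr+ non-cycling cells were also split by 4 genes read from the same cells: Vwf, whose expression marks platelet-biased stem cells in mice, Slamf1, which encodes CD150, Cd34, which is low on most adult mouse long-term stem cells, and Flt3, a receptor of multipotent progenitors. Each split was made at 20 CPM, and the 4 splits share their cells. No member was past the fold in any of them; the background was 2.14% for Vwf, 0.571% for Slamf1, 1.41% for Cd34 and 0.513% for Flt3. The ratios below are therefore small, and each is given with the libraries that had 5 or more cells on both sides.

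Cd9 and Cd37 had opposite signs of the pooled ratio in each of the 4 splits. Cd9 stood at 343 CPM in 300 Vwf+ cells, against 258 CPM in 2202 Vwf-low cells (log2 ratio 0.41, higher in 17 of 24 libraries), and Cd37 at 112 against 146 CPM (log2 ratio -0.38, higher in 8 of 24). In 1800 Cd34+ cells Cd9 stood at 254 CPM, against 310 CPM in 702 Cd34-low cells (log2 ratio -0.28, higher in 18 of 43 libraries), and Cd37 at 150 against 118 CPM (log2 ratio 0.34, higher in 30 of 43). In 688 Flt3+ cells Cd9 stood at 239 CPM, against 279 CPM in 1814 Flt3-low cells, higher in 20 of 53 libraries, and Cd37 at 170 against 131 CPM, higher in 37 of 53. In 592 Slamf1+ cells Cd9 stood at 277 CPM, against 265 CPM in 1910 Slamf1-low cells, yet was higher in 22 and lower in 27 of 49 libraries, and Cd37 at 129 against 146 CPM, higher in 19 of 49.

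Cd81 had the sign of Cd9 in these splits. It stood at 463 CPM in Vwf+ cells, against 398 CPM in Vwf-low cells (higher in 17 of 24 libraries), at 385 CPM in Cd34+ cells, against 468 CPM in Cd34-low cells (higher in 9 of 43), and at 365 CPM in Flt3+ cells, against 422 CPM in Flt3-low cells (higher in 15 of 53). Cd53 stood at 193 CPM in Flt3+ cells, against 162 CPM in Flt3-low cells (higher in 27 of 53), and at 144 CPM in Slamf1+ cells, against 179 CPM in Slamf1-low cells (higher in 12 of 49). Tspan13 and Tspan32 had log2 ratios between -0.06 and 0.08 in all 4 splits. Cd34+ cells were the deeper ones, with a median of 135057 counts against 110674 in Cd34-low cells. With cells thinned to 20000 counts, which left 1727 and 631 cells, the log2 ratios of Cd34+ over Cd34-low cells were -0.23 for Cd9, 0.23 for Cd37 and -0.29 for Cd81.

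**Figure D4:**
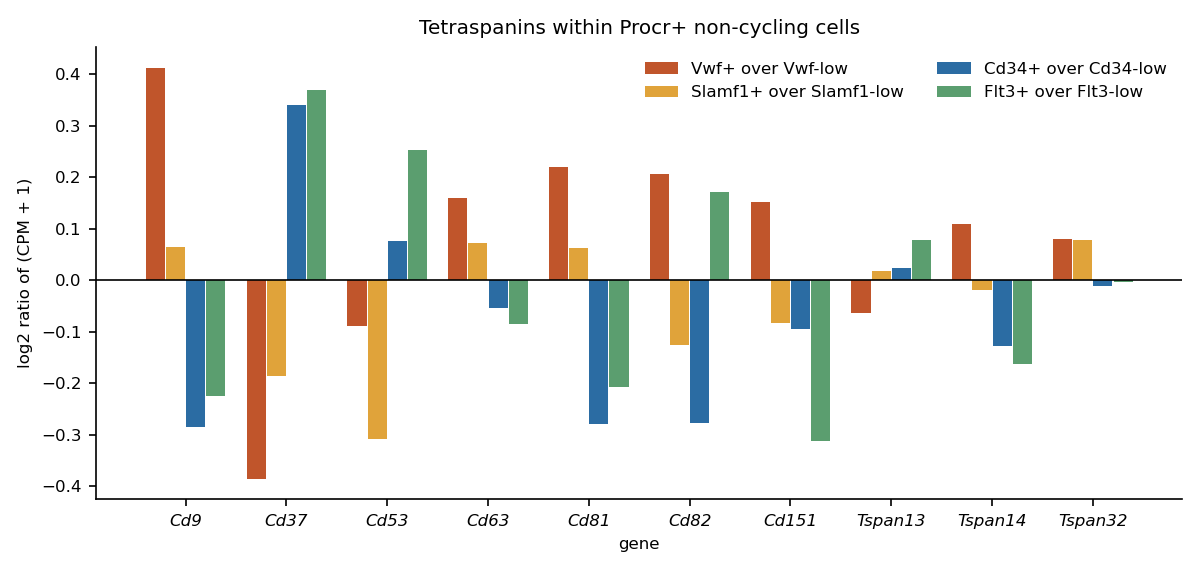
Log2 ratio of (CPM + 1) of each tetraspanin within Procr+ non-cycling cells, for Vwf+ over Vwf-low, Slamf1+ over Slamf1-low, Cd34+ over Cd34-low and Flt3+ over Flt3-low cells. All bars lie between -0.38 and 0.41, and the bars of Cd9 and Cd37 point in opposite directions in each split.

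Most Procr+ non-cycling cells carried several tetraspanins at once. After thinning to 20000 counts, a cell held counts of a median of 7 of the 10 members in Procr+ cycling cells, 5 in B-lineage, 5 in T-lineage, 6 in plasma cell, 5 in neutrophil and 5 in erythroid marker cells, and 7 in Procr+ non-cycling cells; without thinning the medians were 8, 5, 6, 7, 7, 7 and 8 in the same order of groups. Within the 2358 thinned Procr+ non-cycling cells, Spearman's rho between 2 members ran from -0.06 to 0.14 over the 45 pairs. Across the 12 groups the closest member pairs by Pearson's r of log2(CPM + 1) were Cd63 and Tspan14 (0.82), Cd81 and Tspan13 (0.78) and Cd37 and Cd53 (0.74); the groups share libraries.

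Of 11183 genes at 10 CPM or more in at least 1 of the 12 groups, those most like each member over the groups by the same r were as follows. Cd37 was most like Dbnl (0.95), Ccr6 and Cxcr5, and Cd53 most like Pou2f2 (0.94), Dock2 and Snx20. Cd63 was most like Aldh2 (0.97), Rtp4 and Pak1, Cd9 most like Fem1b (0.95), Coro2a and Reps1, and Cd81 most like Slc17a5 (0.94), Erlin2 and Qrich1. Tspan14 was most like Rnf170 (0.93), then another tetraspanin, Tspan3, and Bbx, Tspan13 most like Tmed9 (0.93), Tmem82 and Arl1, and Tspan32 most like Tmem222 (0.95), Atxn7l3b and Hmg20b. Cd82 was most like Trim8 (0.90), Ubn2 and Zmiz1, and Cd151 most like Wdr47 (0.94), BC028528 and Poc1b.

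Of 20 further tetraspanin genes in the matrix, 6 passed the filter on low values in the cycling comparison and 1 was past the fold: Tspan33, an ADAM10 escort like Tspan14, stood at 23.0 CPM in Procr+ cycling cells, against 9.60 CPM in Procr+ non-cycling cells (log2 ratio 1.18). Tspan3 stood at 163 against 218 CPM there, and at 44.9 CPM in B-lineage, 49.0 CPM in plasma cell and 29.0 CPM in erythroid marker cells. Of 22 partner genes 16 passed the filter and 2 were past the fold. Itgal, which encodes the alpha chain of the leukocyte integrin LFA-1, stood at 12.3 CPM in Procr+ cycling cells and 5.14 CPM in Procr+ non-cycling cells (log2 ratio 1.11). Ifitm1, whose protein joins CD81 on leukocytes, stood at 1483 CPM in Procr+ cycling cells and 3009 CPM in Procr+ non-cycling cells (log2 ratio -1.02), and at 142 CPM in plasma cell and 224 CPM in T-lineage marker cells.

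Sdcbp, encoding syntenin, which binds CD63, stood at 479 CPM in Procr+ cycling cells and 539 CPM in Procr+ non-cycling cells, and Tsg101, a sorting factor, at 118 and 107 CPM. Sdcbp was past the fold downward in B-lineage marker cells, at 225 CPM, in T-lineage, at 259.7 CPM, and in plasma cell marker cells, at 145 CPM; in erythroid marker cells, where Cd63 was low as well, it stood at 327 CPM, short of the fold. Kit, the receptor used for enrichment, stood at 131 CPM in Procr+ cycling cells and 159 CPM in Procr+ non-cycling cells.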

How the data were processed

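Modified Smart-seq2 (STRT-seq) libraries with enriched 3′ ends were made after 20 and 4 cycles of PCR, per the labels' protocols, and Trimmomatic 0.36, HISAT2 2.1.0, HTSeq 0.9.1 and GRCm38 are named in the submitters' processing notes. The authors deposited counts as whole numbers, with no normalization, for each gene in each cell; the sources used here do not say if they are reads or molecules. A detected gene had a median of 10 counts in a cell, so amplified copies are not independent molecules, and the exact 95% intervals cover counting error only. Library totals ran from 1665151 to 26184494 counts over 67 libraries of 22 to 92 cells, and 17 further columns, all of 1 library, were not used here.

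Of 4271 cells, 76 had under 1000 genes and 10 were over 10% mitochondrial counts. Counts were summed per cell group and scaled to CPM with Python 3.11.15, numpy 2.4.6, scipy 1.17.1 and pandas 2.3.3; ratios used a pseudocount of 1 CPM and genes at 10 CPM or more in either group, and were checked on simulated data. A floor is 3 counts. Doublets were not called, since the sort was of single cells; 93 of 95 cell numbers recur in 2 or more libraries, but 0 cells had identical values. Sums weight deep cells more, which an equal weighting tested. Of 19224 symbols, 19071 matched GENCODE M21. The planned edgeR test of months and tissues was not run because no cell could be tied to a sample, and libraries are not replicates of a condition. The 10 members and all gene lists were chosen with earlier results of these data known. Genes named were the members, the 3 genes most like each, and, of the further tetraspanins and partners, those past the fold in the cycling comparison or at 100 CPM or more in Procr+ non-cycling cells. Alternatives were other cell filters, gates, pseudocounts, weights and scalings, thinning to 20000 counts and leaving out libraries; those on stem cell genes, neutrophil markers and each single library were added after seeing the data.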

Additional observations from a re-analysis of the deposited data

How the results depend on the processing

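Over 15 alternatives, 407 of 435 values of members past the fold kept their call, 24 lost it and 4 changed sign, and 66 of 1155 other values gained a call; of 159 counts of members past the fold, 142 stayed within 1.5 times. The count stayed at 0 of 10 for Procr+ cycling, Cd34+ and Vwf+ cells in every alternative run. For macrophage marker cells it was 2, and 4 with cells weighted equally or thinned, 5 with Procr+ at any count, with lineage markers at 200 CPM or without cells carrying stem cell genes, and 0 without the library with most cells or without the 8 libraries high in neutrophil markers. For cells with megakaryocyte markers it was 0, and 2 with equal weights or thinning, 1 with Procr+ at any count or at 50 CPM, 3 at 200 CPM, 6 without cells carrying stem cell genes (13 cells left) and 1 without the 8 libraries. For plasma cell marker cells it was 5, and 3 with a pseudocount of 10 CPM. For primary granule marker cells it was 3, and 5 at 200 CPM, 1 thinned and 7 without cells carrying stem cell genes (8 cells left). The sign turned for Cd151 in primary granule marker cells (-4.002 at 200 CPM and without cells carrying stem cell genes) and, without the 8 libraries, for Cd81 (-0.13) and Cd82 (-0.13) in macrophage marker cells; the cause was not tested. The median log2 ratio of all genes tested lay at -0.23 in B-lineage, -0.18 in T-lineage, -0.45 in plasma cell, -0.21 in primary granule and -0.27 in erythroid marker cells; relative to it, Tspan14 was not past the fold in B-lineage (-0.87) and plasma cell marker cells (-0.65), nor Cd63 in primary granule marker cells (-0.90). Classes of 21 to 60 cells limit what these values can show. No paired analysis was possible because the labels give no replicate numbers and no cell could be tied to a sample; counts of libraries in 1 direction are no paired test.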

Other observations

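The 11 cells with dendritic cell markers were too few to compare. Summed over them, Cd63 stood at 2.72 CPM, Tspan32 at 32.7 CPM and Cd151 at 0 CPM, while Cd9 stood at 556 CPM, Tspan13 at 543 CPM and Cd53 at 531 CPM; Cd37 stood at 240 CPM and Cd81 at 125 CPM. The cells came from 7 libraries, and the upper quartile of Cd63 over the cells was 3.77 CPM.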
